A study of Mus musculus with 6 samples.

Results

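Mouse cells take up and export amino acids through several families of solute carriers (SLC), and the genes of 7 of them were examined in mature CD4 SP thymocytes that lacked the H3K27 demethylases Utx and Jmjd3. Members were the genes of the array whose single annotated symbol starts with *Slc1a*, *Slc3a*, *Slc6a*, *Slc7a*, *Slc36a*, *Slc38a* or *Slc43a*, without the creatine carrier *Slc6a8*. They numbered 62 of the 19752 genes measured, with 7 in the Slc1a family, 2 in Slc3a, 19 in Slc6a, 16 in Slc7a, 4 in Slc36a, 11 in Slc38a and 3 in Slc43a. Each gene was represented by its brightest row over the 6 arrays. A member was called expressed if its mean log2 value over all arrays reached 6.297, the median of the means of all genes, and near-background otherwise. By this rule 18 members were expressed, with means from 6.42 to 11.45, and 44 were near-background, with means from 3.76 to 6.28. *Slc3a1* (6.42) lay just inside this limit and *Slc6a17* (6.28) just outside it. The wild-type mean of *Slc3a1* was 6.59 and its dKO mean 6.25, below the limit, so only its wild-type arrays placed it inside. Most members were thus near the background of the array. Probes of different genes respond differently, so levels are compared here only between genotypes and not between genes.

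RNA came from Va2hi CD24lo CD4 SP thymocytes sorted from mice that carried the OT-II TCR transgene, which fixes the specificity of the TCR for an MHC II-restricted antigen. In dKO cells, the floxed alleles of *Jmjd3* and of *Utx* had been removed by a Cre driven from *Cd4* sequences, which acts from the DP stage onwards in the whole T-cell lineage. The wild-type cells also carried OT-II but came from Cre-negative animals, so that Cre itself was present in the dKO group only. Each genotype had 3 arrays, described as biological replicates. It is not stated that separate mice were used for each array, and p-values then reflect only how far these samples vary, which may be technical. Values are log2 signals after RMA, and differences between dKO and wild-type means were tested in limma with Benjamini-Hochberg adjustment over all 19752 genes. *Kdm6a*, which encodes Utx, had log2 signals of 10.16, 10.11 and 10.20 on wild-type arrays and of 9.48, 9.40 and 9.58 on dKO arrays (log2 difference -0.67, adjusted p = 2.6e-05 from limma). For *Kdm6b*, the gene of Jmjd3, the log2 difference was -0.09 (adjusted p = 0.32). Whether its probes lie in the floxed exons was not examined, so this value checks nothing about the deletion.

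Amino acid carriers are named by the transport systems they form. System L exchanges large neutral amino acids and is built from a light chain such as *Slc7a5* joined to the heavy chain CD98, the product of *Slc3a2*. Systems A and N are sodium-coupled carriers of small neutral amino acids and glutamine, system ASC exchanges alanine, serine, cysteine and glutamine, and system y+ carries arginine and lysine. Other members sit in the lysosome, where they export amino acids from degraded protein and, in the case of *Slc38a9*, report arginine to the kinase mTORC1. Mature T-cells are known to raise several of these carriers when antigen activates them.

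Among the 18 expressed members, 6 were lower and 4 were higher in dKO than in wild-type cells at an adjusted p under 0.05, and 8 did not pass. The members that were lower were *Slc38a6*, *Slc36a1*, *Slc3a1*, *Slc43a2*, *Slc38a9* and *Slc1a5*, and the members that were higher were *Slc36a4*, *Slc3a2*, *Slc7a5* and *Slc38a7*. *Slc3a1* counts among the expressed members only through its wild-type arrays. With the limit at the 60th percentile of gene means, which leaves it out, 5 expressed members were lower. The shares were 33.3% lower and 22.2% higher, against 16.7% lower and 23.2% higher among all expressed genes, and 10.0% lower and 13.1% higher among all 19752 genes. The median log2 difference of the 18 members was -0.06, against 0.03 for all expressed genes. In 11 of the 18 members (61.1%) the arrays of the genotypes did not overlap, which was so for 57.3% of all expressed genes. After cyclic loess normalization of the same values the split was 6 lower and 2 higher, since *Slc7a5* and *Slc38a7* no longer passed. It was 4 lower and 1 higher with unmoderated variances (each gene tested on its own spread), 6 and 1 without dKO replicate 2, 5 and 1 without dKO replicate 3, and 6 and 2 without wild-type replicate 1 or wild-type replicate 2. The split rose to 6 and 5, with *Slc7a1* also higher, in a fit of only the genes at or above the median level. It was the same with robust variances and a trend. Averaging of rows and a replicate block left it at 6 and 4. *Slc36a4* was higher in each of these. In RNA from a population of cells, fewer cells that express a gene and less RNA per cell cannot be told apart.

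**Figure D1:**
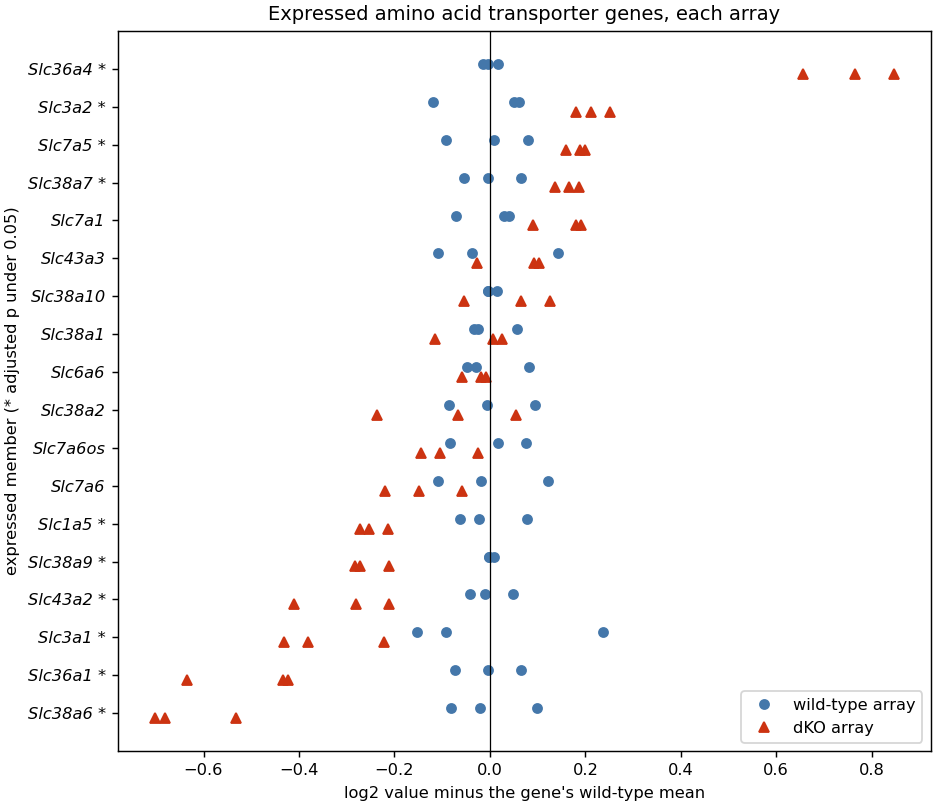
Each row is 1 of the 18 expressed members, and each point is 1 array, plotted as its log2 value minus the mean of the 3 wild-type arrays of that gene (circles, wild-type; triangles, dKO; asterisks, adjusted p under 0.05). The dKO arrays of *Slc36a4* lie far to the right of the wild-type arrays, those of *Slc38a6* and *Slc36a1* far to the left, and the 4 genes that are higher include 3 with log2 differences of 0.16 to 0.21.

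The Slc36a family held the largest increase among the members, and its other expressed gene was lower. *Slc36a4* encodes a high-affinity carrier of proline and tryptophan (PAT4). On the log2 scale, the wild-type arrays gave 7.63, 7.64 and 7.66 and the dKO arrays gave 8.49, 8.30 and 8.41. All 3 dKO arrays lay above all wild-type arrays, and the increase of 0.76 ± 0.05 (standard error, n = 3 each) amounted to 1.69-fold (adjusted p = 1e-05 from limma). *Slc36a1* encodes PAT1, which exports small neutral amino acids from lysosomes together with protons. Its log2 signal was 8.88, 8.95 and 9.02 on the wild-type arrays, against 8.32, 8.52 and 8.53 on the dKO arrays. Here the dKO arrays lay below the wild-type arrays, with a log2 difference of -0.49 ± 0.07 (standard error, n = 3 each), so that dKO cells had 71.1% of the wild-type value (adjusted p = 0.0005). *Slc36a2* and *Slc36a3*, known from kidney and testis, were near-background (log2 differences 0.02 and -0.08, adjusted p = 0.86 and 0.35). The calls of *Slc36a4* and *Slc36a1* held in all 13 alternative analyses.

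The promoters of these genes are shown because the genes moved in opposite directions and because that of *Slc36a1* held E-boxes. The E-box CACGTG is the core of the sites through which the factors TFEB and TFE3 are known to act on lysosomal genes, and other factors such as Myc bind it as well. Windows are from RefSeq (GRCm38.p6), run from 250 bases before to 50 after the annotated start, and are written on the strand of the gene with each E-box in capitals. *Slc36a1* (chr11:55204090-55204389, plus strand) held 2 E-boxes, whose first bases lay 31 and 3 bases before the start. *Slc36a4* (chr9:15709488-15709787, plus strand) held none in this window.
Slc36a1: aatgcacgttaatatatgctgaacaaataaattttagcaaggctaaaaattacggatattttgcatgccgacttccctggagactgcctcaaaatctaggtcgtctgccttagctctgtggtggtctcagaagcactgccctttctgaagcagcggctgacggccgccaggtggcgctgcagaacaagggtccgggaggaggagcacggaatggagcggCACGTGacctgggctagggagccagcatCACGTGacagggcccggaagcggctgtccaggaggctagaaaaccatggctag
Slc36a4: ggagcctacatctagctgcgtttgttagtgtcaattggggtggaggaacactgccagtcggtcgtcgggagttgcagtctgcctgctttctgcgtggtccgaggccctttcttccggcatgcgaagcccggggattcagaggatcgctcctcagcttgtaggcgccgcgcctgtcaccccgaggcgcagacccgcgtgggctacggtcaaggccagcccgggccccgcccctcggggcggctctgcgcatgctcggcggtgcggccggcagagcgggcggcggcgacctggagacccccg

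The expressed lysosomal members of the Slc38a family also differed in direction. *Slc38a9* encodes the lysosomal carrier through which arginine is sensed. Wild-type arrays measured 9.42, 9.42 and 9.43 on the log2 scale, and dKO arrays 9.15, 9.14 and 9.21. The groups did not overlap, and the log2 difference was -0.26 ± 0.04 (standard error, n = 3 each; 83.8% of wild-type, adjusted p = 0.0024 from limma). A second, dimmer row of the same gene had a wild-type mean of 6.82 and a dKO mean of 6.55, a log2 difference of -0.27. *Slc38a7* encodes a lysosomal glutamine exporter, known from human cells. On the log2 scale, the wild-type arrays gave 8.33, 8.38 and 8.45 and the dKO arrays gave 8.52, 8.57 and 8.55, all dKO arrays above all wild-type arrays. The difference of 0.16 ± 0.05 (standard error, n = 3 each) passed the threshold (1.12-fold, adjusted p = 0.036 from limma). It did not pass after quantile or cyclic loess normalization (adjusted p = 0.11 and 0.16). Nor did it pass without any one of 5 of the 6 arrays (adjusted p up to 0.11) or with unmoderated variances. The *Slc38a7* promoter window (chr8:95853442-95853741, minus strand) held 1 E-box, 34 bases before the start, and is shown in the same way.
Slc38a7: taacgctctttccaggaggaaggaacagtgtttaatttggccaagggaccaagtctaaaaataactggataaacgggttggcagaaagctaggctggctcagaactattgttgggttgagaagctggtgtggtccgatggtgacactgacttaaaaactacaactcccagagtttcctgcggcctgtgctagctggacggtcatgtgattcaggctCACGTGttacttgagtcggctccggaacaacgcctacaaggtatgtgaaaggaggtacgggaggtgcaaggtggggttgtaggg

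Promoter windows were found for 13 of the 18 expressed members, 16 windows in all, and none was found in the table for *Slc7a5*, *Slc1a5*, *Slc38a1*, *Slc6a6* and *Slc43a3*. E-boxes (CACGTG, which reads the same on both strands) were present in 2 of the 16 windows, those of *Slc36a1* and *Slc38a7*, against 7.15% of the 32851 windows of the whole table. *Slc36a1* was lower and *Slc38a7* higher in dKO cells. The ATF4 response element TGATGNAA, known from genes that respond to amino acid shortage, was searched on both strands and occurred in 0 of the 16 windows, against 3.97% of all windows. A match describes the letters of a window and is not evidence of a bound factor.

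Both chains of the main system L carrier were slightly higher in dKO cells, while the system L uniporter *Slc43a2* was lower. *Slc3a2* encodes the heavy chain CD98, which carries *Slc7a5*, *Slc7a6* and other light chains to the surface. Its log2 signal was 11.06, 11.24 and 11.23 on the wild-type arrays, against 11.36, 11.43 and 11.39 on the dKO arrays. All dKO arrays were above all wild-type arrays, by 0.21 ± 0.06 on average (standard error, n = 3 each; 1.16-fold, adjusted p = 0.024 from limma). *Slc7a5* encodes LAT1, the light chain for leucine, tryptophan and other large neutral amino acids. Wild-type arrays measured 9.85, 9.78 and 9.68 on the log2 scale, and dKO arrays 9.97, 9.93 and 9.96. Again the groups did not overlap, and the log2 difference was 0.18 ± 0.05 (standard error, n = 3 each; 1.14-fold, adjusted p = 0.034). Both increases were small and near the threshold. The call of *Slc3a2* was lost without wild-type replicate 1, dKO replicate 2 or dKO replicate 3 (adjusted p up to 0.089), and that of *Slc7a5* without any one array except wild-type replicate 1 (up to 0.11) and after cyclic loess normalization. Both calls were lost with unmoderated variances (adjusted p = 0.12 and 0.11).

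*Slc43a2* encodes LAT4, which lets branched-chain amino acids and phenylalanine across the membrane without exchange. On the log2 scale, the wild-type arrays gave 8.74, 8.83 and 8.77 and the dKO arrays gave 8.37, 8.50 and 8.57. The dKO arrays lay below the wild-type arrays, with a log2 difference of -0.30 ± 0.06 (standard error, n = 3 each; 81.3% of wild-type, adjusted p = 0.0047 from limma). With unmoderated variances, adjusted in the same way, p was 0.062. The other system L members, *Slc43a1* and *Slc7a8*, were near-background, the latter with a log2 difference of 0.06. *Slc43a1* had wild-type values of 5.77, 5.68 and 5.82 and dKO values of 5.72, 5.39 and 5.41, which overlapped, and its log2 difference of -0.24 did not pass (adjusted p = 0.065).

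Of the carriers that bring neutral amino acids and glutamine into T-cells, *Slc1a5* was lower and the system A genes did not pass the test. *Slc1a5* encodes ASCT2, a sodium-dependent exchanger of glutamine and other neutral amino acids. Its log2 signal was 9.59, 9.49 and 9.45 on the wild-type arrays, against 9.26, 9.30 and 9.24 on the dKO arrays. No dKO array reached the lowest wild-type array, and the log2 difference was -0.25 ± 0.05 (standard error, n = 3 each; 84.3% of wild-type, adjusted p = 0.0067 from limma). This call held in all 13 alternative analyses.

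*Slc38a1* (SNAT1) had log2 signals of 10.09, 10.08 and 10.17 on wild-type arrays and of 10.00, 10.12 and 10.14 on dKO arrays. The groups overlapped, with a log2 difference of -0.02 (95% confidence interval -0.15 to 0.10, adjusted p = 0.82) that turned to 0.001 after quantile normalization again. Its second, dimmer row gave a log2 difference of 0.04. *Slc38a2* (SNAT2), which cells are known to raise when amino acids are short, had log2 signals of 11.41, 11.49 and 11.59 on wild-type arrays and of 11.26, 11.43 and 11.55 on dKO arrays. These also overlapped (log2 difference -0.08, 95% confidence interval -0.25 to 0.09, adjusted p = 0.52). The remaining system A gene, *Slc38a4*, and the system N genes *Slc38a3* and *Slc38a5* were near-background and did not pass (log2 differences -0.01, -0.12 and -0.11).

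The expressed system y+ and y+L genes, which carry cationic amino acids across the cell membrane, did not pass the test. *Slc7a1* encodes CAT1, the main carrier of arginine and lysine in many cells. Wild-type arrays measured 9.32, 9.33 and 9.22 on the log2 scale, and dKO arrays 9.38, 9.47 and 9.48. The dKO arrays were above the wild-type arrays, but the log2 difference of 0.15 ± 0.05 (standard error, n = 3 each) narrowly missed the threshold (adjusted p = 0.060 from limma). It passed in 3 of the 13 alternative analyses, with an adjusted p down to 0.034. *Slc7a6* encodes y+LAT2, a light chain of CD98 that exchanges cationic for neutral amino acids. Its wild-type arrays (9.53, 9.67 and 9.44) and dKO arrays (9.33, 9.40 and 9.49) overlapped (log2 difference -0.14, adjusted p = 0.18).

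*Slc7a7*, which encodes the related light chain y+LAT1, was the only near-background member that was higher. On the log2 scale, the wild-type arrays gave 4.88, 5.11 and 5.05 and the dKO arrays gave 5.41, 5.31 and 5.29. The arrays did not overlap (log2 difference 0.33 ± 0.07, standard error, n = 3 each; adjusted p = 0.0056 from limma), although all of them lay below the median of all genes. The call was lost with unmoderated variances (adjusted p = 0.082). Macrophages are known to express *Slc7a7*, and the macrophage gene *Lyz2* was also higher, with log2 signals of 5.35, 5.43 and 5.03 on wild-type arrays and of 6.75, 6.02 and 5.48 on dKO arrays (adjusted p = 0.043). The myeloid and dendritic markers *Csf1r*, *Adgre1*, *Itgax*, *Flt3* and *Siglech* did not pass, *Cd68* was lower (log2 difference -0.31, adjusted p = 0.0032), and the mean of the 7 markers ranged from 5.55 to 5.64 in wild-type and from 5.60 to 5.74 in dKO arrays. The part of myeloid RNA in the *Slc7a7* value was not tested. *Slc7a11* (xCT), the CD98 partner that imports cystine, was near-background, with log2 signals of 4.47, 4.38 and 4.46 on wild-type arrays and of 4.59, 4.31 and 4.51 on dKO arrays (log2 difference 0.04, adjusted p = 0.78).

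The largest decrease among the members was that of *Slc38a6*, which encodes SNAT6, a little-studied relative of the system A carriers. Its log2 signal was 7.83, 7.95 and 7.77 on the wild-type arrays, against 7.17, 7.15 and 7.32 on the dKO arrays. The groups were well apart, with a log2 difference of -0.64 ± 0.06 (standard error, n = 3 each), so that dKO cells had 64.1% of the wild-type value (adjusted p = 7.5e-05 from limma, and at most 0.019 over the 13 alternative analyses). *Slc3a1* encodes rBAT, the heavy chain of the kidney cystine carrier. Wild-type arrays measured 6.50, 6.44 and 6.83 on the log2 scale, and dKO arrays 6.21, 6.37 and 6.16, without overlap. The log2 difference of -0.34 ± 0.10 (standard error, n = 3 each; adjusted p = 0.026) was lost without dKO replicate 1 or dKO replicate 3 (adjusted p up to 0.094). It was also lost with unmoderated variances (adjusted p = 0.20). Its light chain *Slc7a9* was near-background (4.38 ± 0.10 in wild-type and 4.54 ± 0.10 in dKO cells, SD, n = 3 each; adjusted p = 0.15).

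The remaining expressed members did not pass. They were the taurine carrier *Slc6a6* (log2 difference -0.03), the Slc38a relative *Slc38a10* (0.04), *Slc43a3* (0.06) and *Slc7a6os* (-0.09), with adjusted p from 0.31 to 0.75. *Slc43a3* carries purine nucleobases and not amino acids, and *Slc7a6os* is a gene next to *Slc7a6* that shares its name but encodes no transporter.

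**Figure D2:**
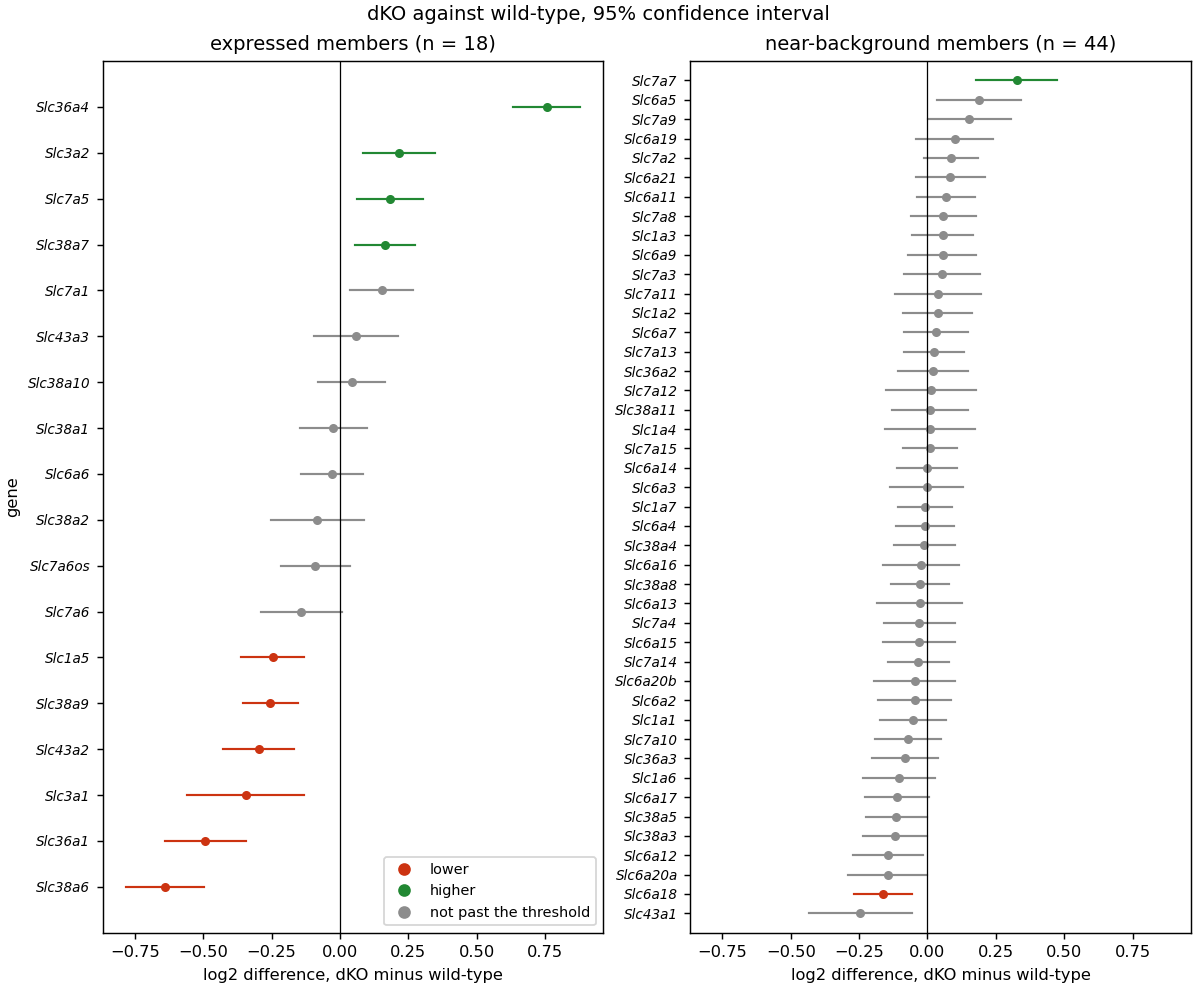
Log2 difference between the dKO and wild-type means (horizontal axis) with its 95% confidence interval from limma for each of the 18 expressed (left) and 44 near-background members (right), ordered by size. Expressed members spread from -0.64 for *Slc38a6* to 0.76 for *Slc36a4*, whereas only *Slc7a7* and *Slc6a18* passed among the near-background members.

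Among the 44 near-background members, 1 was higher (*Slc7a7*) and 1 was lower (*Slc6a18*), or 2.27% in each direction, against 3.02% higher and 3.34% lower among all near-background genes. Their median log2 difference was -0.006, against -0.004 for all near-background genes. *Slc6a18*, a neutral amino acid carrier of the kidney, had log2 signals of 5.17, 5.23 and 5.27 on wild-type arrays and of 5.06, 5.04 and 5.09 on dKO arrays. The log2 difference was -0.16 (adjusted p = 0.033 from limma), and it was lost without any one of 4 of the 6 arrays (adjusted p up to 0.11) and with unmoderated variances. At an unadjusted p under 0.05, 9 of the 44 differed (20.5%), against 13.1% of all near-background genes. The 42 members that did not pass had log2 differences from -0.24 to 0.19, with adjusted p of 0.065 or more.

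These 44 genes are mostly known from brain, kidney and gut. They included the glutamate carriers *Slc1a1*, *Slc1a2*, *Slc1a3*, *Slc1a6* and *Slc1a7* (log2 differences -0.10 to 0.06), which clear glutamate around nerve cells and elsewhere. Carriers of dopamine, noradrenaline and serotonin (*Slc6a3*, *Slc6a2* and *Slc6a4*) ranged from -0.05 to -0.003, those of glycine (*Slc6a9* and *Slc6a5*) from 0.06 to 0.19, and those of GABA, taurine and betaine (*Slc6a11*, *Slc6a12* and *Slc6a13*) from -0.14 to 0.07. Slc6a members grouped here as neutral amino acid carriers and relatives (*Slc6a7*, *Slc6a14*, *Slc6a15*, *Slc6a16*, *Slc6a17*, *Slc6a18*, *Slc6a19*, *Slc6a20a* and *Slc6a20b*) ranged from -0.16 to 0.10. Of the Slc7a family, the other system y+ genes *Slc7a2* and *Slc7a3* had log2 differences of 0.09 and 0.05, the system asc genes *Slc7a10* and *Slc7a12* of -0.07 and 0.01, and *Slc7a13* of 0.03. The second system ASC gene, *Slc1a4*, averaged 5.28 ± 0.16 on wild-type arrays and 5.29 ± 0.04 on dKO arrays (log2, SD, n = 3 each). The less-studied *Slc38a8*, *Slc38a11*, *Slc7a4*, *Slc7a14*, *Slc7a15* and *Slc6a21* ranged from -0.03 to 0.08.

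**Figure D3:**
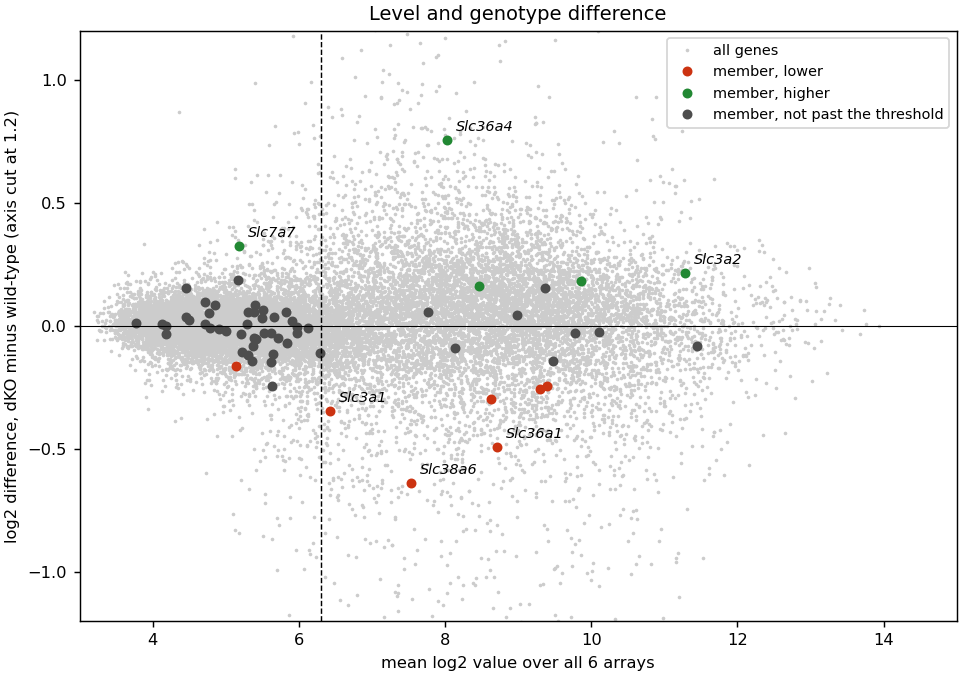
Mean log2 value over all 6 arrays (horizontal axis) against the log2 difference between dKO and wild-type (vertical axis) for all 19752 genes (grey) and the 62 members (coloured by call), with the limit between near-background and expressed genes at 6.297 as a dashed line. Members to the left of the line lie between -0.24 and 0.19 except *Slc7a7* at 0.33, and 95 genes that are no members fall outside the plotted range.

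No pair of members that are neighbours on a chromosome passed the test together. Most of these pairs held a near-background gene, and of all near-background genes 3.34% were lower and 3.02% higher. Few joint calls could therefore arise, and their absence says little about neighbours. *Slc36a1* lies next to *Slc36a2* and *Slc36a3* on chromosome 11, and it was lower while its neighbours were near-background and did not pass. *Slc38a1*, *Slc38a2* and *Slc38a4* follow each other on chromosome 15, and none passed. *Slc6a18* lies next to *Slc6a19* on chromosome 13, which had a log2 difference of 0.10 (adjusted p = 0.32). *Slc43a1* and *Slc43a3*, with 1 gene between them on chromosome 2, had log2 differences of -0.24 and 0.06, neither past the threshold. The pairs *Slc7a6* and *Slc7a6os*, *Slc6a12* and *Slc6a13*, *Slc6a16* and *Slc6a21*, and *Slc6a20a* and *Slc6a20b* held no gene that passed.

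Genes of amino acid sensing and use were examined for comparison, in 4 lists. Of 38 measured genes of the mTORC1 amino acid sensing pathway, 6 were lower and 7 higher (15.8% and 18.4%, against 10.0% and 13.1% of all genes and 16.7% and 23.2% of expressed genes). Of these 38 genes, 36 were expressed, and every gene that passed was among the 36. *Rragd* was among them only through its dKO arrays, with a mean of 6.23 in wild-type, below the limit of 6.297, and of 6.82 in dKO cells. The shares over the whole list are therefore slightly below those over its expressed genes. The list had a median log2 difference of 0.04, against 0.01 for all genes. *Castor1*, a cytosolic arginine sensor, had log2 signals of 7.77, 7.67 and 7.59 on wild-type arrays and of 7.13, 7.04 and 6.90 on dKO arrays (log2 difference -0.66, adjusted p = 9.9e-05 from limma). *Tfeb*, the lysosomal gene regulator, was lower by the same test (log2 difference -0.43, adjusted p = 0.00039). Its relative *Tfe3* did not pass, with a mean of 8.32 in both genotypes. The Rag GTPases, which bring mTORC1 to the lysosome, were higher, with log2 differences of 0.59 for *Rragd*, 0.35 for *Rraga*, 0.31 for *Rragb* and 0.22 for *Rragc* (adjusted p from 0.00018 to 0.017). They were noticed as a group after their values had been seen.

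The amino acid response list held 35 genes, of which 28 were expressed. They were *Atf4*, its upstream kinase gene *Eif2ak4*, and genes known to respond to amino acid shortage, many through ATF4. Of the 35, 8 were higher and 0 lower (22.9% and 0%). Among all genes 13.1% were higher and 10.0% lower, and among expressed genes 23.2% and 16.7%. The last is not a like comparison, since the list also holds near-background genes. At an unadjusted p under 0.05 from limma, 4 of the 35 were lower. After quantile or cyclic loess normalization, 3 of them were lower by the same limma threshold (*Psat1* and *Psph* of serine synthesis, and *Cars*). The genes that were higher with the smallest p were *Shmt2* (mitochondrial serine use, log2 difference 0.46), *Eif2ak4* (the kinase GCN2, which senses uncharged tRNA, 0.33), *Ddit4* (an inhibitor of mTORC1, 0.30) and *Eif4ebp1* (a translation repressor, 0.45), with adjusted p from 0.00027 to 0.0016. Of 34 genes of amino acid metabolism, 9 were higher and 1 lower (26.5% and 2.94%, against 13.1% and 10.0% of all genes and 23.2% and 16.7% of expressed genes), with a median log2 difference of 0.07. Of these 34 genes, 25 were expressed, and every gene that passed was among the 25. The shares over the whole list are therefore below those over its expressed genes. *Oat*, the mitochondrial enzyme that makes glutamate semialdehyde from ornithine, had log2 signals of 8.86, 8.98 and 8.92 on wild-type arrays and of 9.82, 9.74 and 9.69 on dKO arrays (1.78-fold, adjusted p = 4.7e-06). *Bckdhb*, a subunit of the complex that degrades branched-chain keto acids, was 1.47-fold higher (adjusted p = 2.4e-05). *Sat1*, of polyamine breakdown, was 1.23-fold higher, and the proline-degrading *Prodh* was the gene that was lower (log2 difference -0.29, adjusted p = 0.0018). These lists share 3 genes.

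Of 28 other carriers of amino acids or related solutes, 4 were lower and 4 higher (14.3% each, against 10.0% and 13.1% of all genes and 16.7% and 23.2% of expressed genes), with a median log2 difference of 0.03. Of these 28 carriers, 20 were expressed, and every carrier that passed was among the 20. The shares over the whole list are therefore below those over its expressed genes. The 4 that were higher became 0 with unmoderated variances and 1 to 4 with an array left out. *Slc16a10*, a carrier of aromatic amino acids, had log2 signals of 8.47, 8.49 and 8.59 on wild-type arrays and of 7.53, 7.54 and 7.57 on dKO arrays, a decrease of 1.97-fold (adjusted p = 8.1e-07 from limma), which is larger than that of any member. *Slc17a9* (log2 difference -0.97, adjusted p = 2.6e-05) was also lower, although it is known as a nucleotide carrier. The mitochondrial aspartate and glutamate exchanger *Slc25a12* (-0.53) and the mitochondrial carrier *Slc25a40* (-0.56) were lower as well. *Slc25a13*, which encodes the other aspartate and glutamate exchanger, was higher (0.18), as were *Sfxn1* (mitochondrial serine import, 0.26), *Ctns* (lysosomal cystine export, 0.18) and *Slc25a39* (mitochondrial glutathione import, 0.19), with adjusted p from 0.01 to 0.038.

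**Figure D4:**
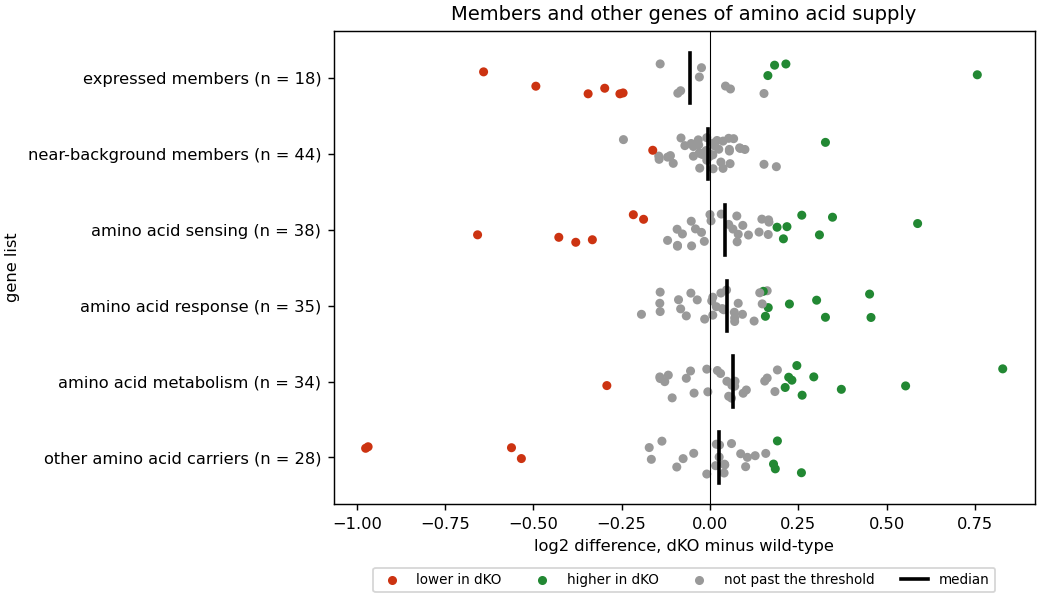
Log2 difference between dKO and wild-type (horizontal axis) of every gene of the members and of 4 lists of amino acid genes (rows), with each point a gene, coloured by call, and the median as a bar (vertical spread within a row is for display). Expressed members have a median of -0.06 and include genes on both sides, and *Slc16a10* and *Slc17a9* stand at the far left. The response list has genes below 0, but none of them passed the threshold in the fit shown.

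The defining markers of T-cells were present, and some markers of the preceding thymic stage differed between the genotypes, in both directions. All 7 measured T-cell markers were expressed, with a mean of 12.11 to 12.16 in wild-type and of 12.09 to 12.11 in dKO arrays, whereas 0 of 4 B-cell and 0 of 2 red cell precursor markers were, 1 of 7 myeloid and dendritic markers (*Cd68*) and 1 of 6 thymic epithelium markers (*Krt8*). Of the T-cell markers, *Thy1* (log2 difference -0.61, adjusted p = 0.00014 from limma) and *Cd5* (-0.43, adjusted p = 0.0023) were lower and *Cd28* (0.24, adjusted p = 0.0058) was higher. *Epcam*, an epithelial gene, was near-background and higher (log2 difference 0.28, adjusted p = 0.0020 from limma). The other thymic epithelium markers did not pass and went both ways. Their log2 differences were 0.25 for *Krt8*, 0.11 for *Krt5*, 0.005 for *Foxn1*, -0.11 for *Cdh1* and -0.19 for *Psmb11*. Of the 6 DP thymocyte markers, *Dntt* (1.52) and *Cd8b1* (0.54) were higher and *Rag1* (-0.55) was lower on the log2 scale. *Rag2* (0.13), *Cd8a* (-0.17) and *Ptcra* (0.07) did not pass. The mean of the 6 ranged from 6.88 to 7.16 in wild-type and from 7.17 to 7.43 in dKO arrays, with *Dntt* the largest single difference. Whether a different share of less mature cells takes part in the transporter differences was not tested. Of 51 genes restricted to other tissues, with a median level of 5.44, 1 was lower (*Sag*) and 0 were higher, and 2 had an unadjusted p under 0.05. Of these 51 genes, 10 reached the limit for expressed genes. Reaching it therefore does not show by itself that a member near it, such as *Slc3a1* (6.42), is expressed. Arrays of a genotype correlated at 0.9979 to 0.9988 over genes and arrays of different genotypes at 0.9914 to 0.9931.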

How the data were processed

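RNA of 6 samples, 3 wild-type and 3 dKO, was hybridized to arrays that the Methods and the row annotation name as Affymetrix Mouse Gene 1.0 ST, while the series' design text names the Mouse Exon 1.0 ST array. The deposited log2 values were made by the authors in Partek with RMA (background correction, quantile normalization between arrays and summary of probes), with versions not given in the sources used here. RMA compresses differences of dim genes and hides a shift shared by most genes. Array medians lay between 6.268 and 6.323, and the number of arrays limits the precision.

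Of 25254 rows, 21496 had 1 symbol and were used, 1565 had several and 2193 had none. Symbols of 21415 rows were updated through a RefSeq table (GRCm38.p6), which also gave promoters and gene order, and 81 kept that of the annotation. The brightest row was kept for 938 genes with more than 1. Values were tested as deposited, without a filter, in limma 3.58.1 (R 4.3.3) with genotype as the only term, Benjamini-Hochberg adjustment over 19752 genes and a threshold of 0.05. The script was tested on simulated data. Python 3.11.15 with matplotlib 3.10.9 was used for figures.

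Members, gene lists and limits were chosen with earlier results of these data known. Values per array are given for each expressed member past the threshold and for *Slc3a2*, *Slc7a5*, *Slc1a5*, *Slc38a1*, *Slc38a2*, *Slc7a1*, *Slc7a6*, *Slc7a11*, *Slc43a2*, *Slc38a9* and *Slc36a1*, and of each comparison list up to 4 genes with the smallest p were named, and all genes of a count no higher than 5. *Slc6a18*, *Slc7a7*, *Slc43a1*, *Rragb*, *Rragc* and *Lyz2* were given in more detail after their values had been seen. Alternatives were other normalizations, a fit of only the genes at or above the median level, averaging of rows, Student's t-test, a replicate block, robust variances with a trend, omission of each array and other limits for expressed genes. No protein sequence was used here.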

Additional observations from a re-analysis of the deposited data

How the results depend on the processing

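Over 13 alternative analyses, the calls of *Slc36a4*, *Slc36a1*, *Slc38a6*, *Slc38a9* and *Slc1a5* kept their direction and stayed past the threshold, and the count of expressed members that were lower stayed between 4 and 6. The count of expressed members that were higher ranged from 1 to 5. It was 5 with only the genes at or above the median level and with robust variances and a trend. Student's t-test (unmoderated variances, two-sided, Benjamini-Hochberg adjustment) gave 1 expressed member higher in place of 4, 0 near-background members in either direction, and 4 higher sensing genes, 4 higher response genes, 5 higher metabolism genes and 0 higher other carriers. Over all genes it called 1173 lower and 1392 higher, against 1976 and 2587 with limma. Cyclic loess normalization gave 2 expressed members higher, 3 response genes lower, 3 metabolism genes lower and 2 other carriers higher. Quantile normalization again gave 2 near-background members higher (*Slc6a5* besides *Slc7a7*), 3 response genes lower, 3 metabolism genes lower and 2 other carriers higher. With only the genes at or above the median level, 3 response genes and 3 metabolism genes were lower, and near-background members had no value. With the limit for expressed genes at the 60th percentile of gene means, or at the 90th percentile of genes restricted to other tissues, 17 members were expressed and 2 near-background members were lower, since *Slc3a1* changed sides. Nothing in the labels says that the replicate numbers pair the arrays. Deviations from the genotype means correlated at 0.099, 0.024 and 0.07 for same-numbered arrays and at -0.098 to 0.04 for the others. The dKO replicates 1 and 3 correlated best with the wild-type array of their own number, and dKO replicate 2 with wild-type replicate 3. With 3 arrays per genotype, these values cannot settle whether the arrays were paired. The replicate block gave 2 near-background members lower (*Slc43a1* besides *Slc6a18*) and 1 response gene lower (*Trib3*), and it changed no other of the counts by over 1.5 times. Leaving out each array in turn gave 1 to 3 expressed members higher, 0 to 1 near-background members lower, 0 to 1 response genes lower, 4 to 7 response genes higher, 1 to 2 metabolism genes lower and 1 to 4 other carriers higher. The log2 difference of *Slc38a1* turned to 0.005 with the mean of its rows, to 0.001 after quantile normalization again and ranged from -0.051 to 0.02 with an array left out, above 0 without dKO replicate 1 or wild-type replicate 3. That of *Slc7a11* ranged from -0.023 to 0.117 with an array left out, below 0 without dKO replicate 1. None of these passed the threshold. The cause of these shifts was not tested.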
